A study of Mus musculus with 6 samples.

Results

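Heat shock chaperones are the proteins that keep other proteins folded, and 10 of their genes were followed here in mouse CD8+ T cells: the transcription factor gene Hsf1, the HSP70 genes Hspa8, Hspa1a and Hspa1b with their partners Hsph1 and Dnajb1, the HSP90 genes Hsp90aa1 and Hsp90ab1, and the mitochondrial chaperonin genes Hspd1 and Hspe1. They were chosen by name, and all 10 stood in the deposited table of 14481 genes and passed its filter on low counts. Sorted wild-type (WT) CD8+ T cells were stimulated through CD3 and CD28 with interleukin 2, received conditioned medium (CM) at day 1, and gave polyadenylated RNA at day 3. The medium came from astrospheres, which the labels call pSTAT3+ or pSTAT3-, where pSTAT3 is the phosphorylated form of the transcription factor STAT3; the 2 groups are called STAT3+ CM and STAT3- CM, with 3 libraries each. Stimulation, interleukin 2, age of the culture and genotype were shared by both groups, cells given no conditioned medium were not analysed here, and the labels do not state whether replicates came from separate animals, cultures or medium batches, so the p-values speak of the spread among these libraries, which may be technical.

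In a resting cell HSF1 is held inactive by chaperones. When unfolded proteins occupy those chaperones, HSF1 forms trimers, binds heat shock elements in promoters and raises transcription of inducible chaperones such as Hspa1a, Hspa1b, Dnajb1 and Hsph1. Other family members, among them Hspa8 and Hsp90ab1, are made at a high rate without stress, and T cells that grow and divide after activation carry a heavy load of new protein to fold. HSP70 proteins hold unfolded chains with help from J-domain partners such as DNAJB1 and exchange factors such as HSPH1, HSP90 proteins finish the maturation of kinases and receptors, and the HSPD1 and HSPE1 rings fold proteins inside mitochondria.

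Promoter sequences are shown for the 2 gene pairs whose arrangement bears on how their values are read. They come from the RefSeq promoter table of build GRCm38.p6, which held 6 of the 10 genes (Hspa1a, Hspa1b, Hsph1, Dnajb1, Hspd1 and Hspe1), with 250 bases before and 50 bases after each start. Hspd1 and Hspe1 lie head to head on chromosome 1 and share the DNA between them, so that the same 30 bases at chr1:55088054-55088083 are read on the plus strand toward Hspe1, from 94 bases before its start, and on the minus strand toward Hspd1, from 151 bases before its nearer start. Capitals mark the run of alternating GAA and TTC units, the letters of a heat shock element:
Hspe1: gtccgTTCTAGAACCTTCCGGAAggccccg
Hspd1: cggggccTTCCGGAAGGTTCTAGAAcggac
Hspa1a and Hspa1b are tandem copies on chromosome 17 whose upstream DNA is nearly the same, which is why they are shown together, from chr17:34972157-34972276 for Hspa1a and chr17:34959239-34959358 for Hspa1b, both on the minus strand. Capitals mark a GAANNTTC match and a CCAAT box, here as ATTGG:
Hspa1a: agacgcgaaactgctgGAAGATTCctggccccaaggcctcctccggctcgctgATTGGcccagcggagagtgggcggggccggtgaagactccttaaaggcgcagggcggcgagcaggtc
Hspa1b: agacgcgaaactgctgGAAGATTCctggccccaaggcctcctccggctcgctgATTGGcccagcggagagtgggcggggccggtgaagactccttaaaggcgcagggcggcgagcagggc
These 120 bases differed at 1 position (99.2% identical), and the full 250 upstream bases at 3. A run of 3 units, searched on both strands as GAANNTTCNNGAA or TTCNNGAANNTTC, was present in 198 of 32851 promoters of the table (0.603%) and, among these genes, in Hspe1, Hspd1 and Hsph1. In Hspd1 the run was found for the nearer start only, and it lies downstream of the other start. In Hsph1 the run lay just after the start and not before it. The shorter GAANNTTC or TTCNNGAA, each of which reads the same on both strands and is contained in the longer run, was present in 15.1% of promoters, and the CCAAT box, searched as CCAAT or ATTGG, in 37.4%. In the Dnajb1 windows neither form of the GAA and TTC run was found. A match is a description of the letters, and no binding was measured.

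No chaperone gene differed between the media beyond the spread between libraries. With edgeR (quasi-likelihood F test, p-values adjusted after Benjamini and Hochberg over 14319 genes), 0 of the 10 passed an adjusted p of 0.05, where 0 of all genes (0%) passed. At an unadjusted p under 0.05 stood 0 of the 10, where 3.64% of all genes did (1.34% higher and 2.3% lower with STAT3+ CM). The libraries of the groups overlapped in all 10, where 7.95% of all genes had groups that lay apart (3.78% higher and 4.18% lower with STAT3+ CM). DESeq2 called 0 of the 10 as well, where it called 48 of 14481 genes (0.331%). Of the 10 log2 fold changes (STAT3+ CM minus STAT3- CM) 4 were positive, with a median of -0.056, beside 50.2% positive and a median of 0.00076 over all genes tested. Without STAT3- CM replicate 3, a library described further on, 1 of the 10 was positive and the median was -0.16. Without STAT3- CM replicate 1 it was 6 of 10 with a median of 0.042, and without STAT3- CM replicate 2 it was 6 of 10 with 0.037, so the sign of the median depended on the library left out. In each of these fits 0 were called.

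**Figure D1:**
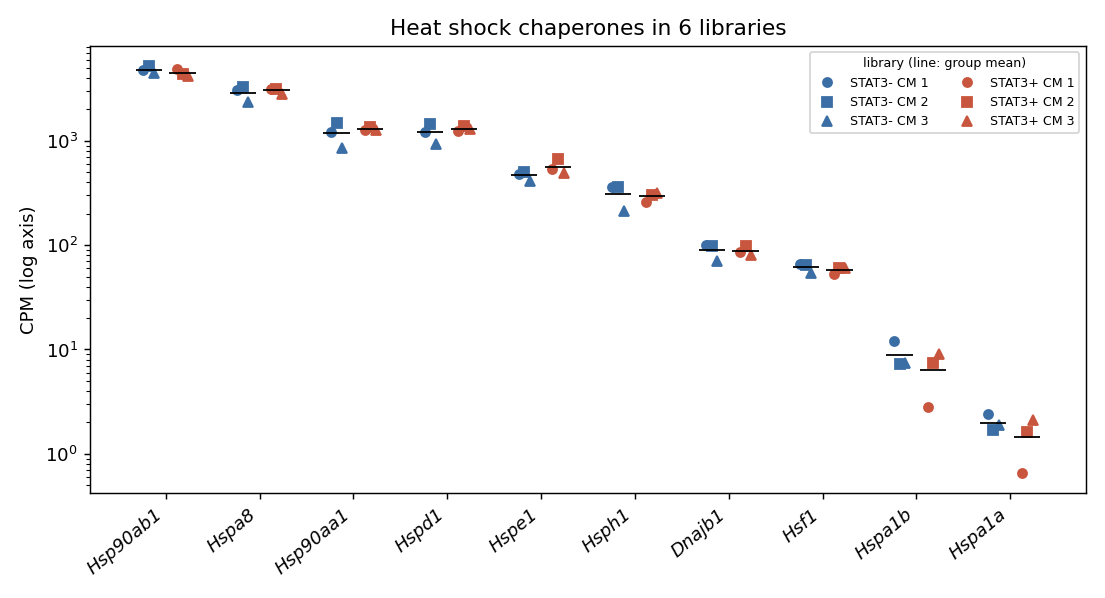
CPM (read counts scaled to the library total and the TMM factor) of the 10 chaperone genes on a log axis, with 1 point per library, STAT3- CM in blue and STAT3+ CM in red, shapes for replicates and a line at each group's mean. Levels run from at least 4201 CPM for Hsp90ab1 to below 3 CPM for Hspa1a, and the groups overlap in every gene.

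Across the family the levels spanned a wide range, with the same order of means in both media. To compare genes, CPM was divided by all annotated exon bases of each gene. These far exceed the longest coding transcript in some genes (1474 against 774 bases in Hspe1, 7099 against 2104 in Hsf1). In Hspd1 the 2 lengths were close (2642 and 2423), so the order between genes depends on the length used. Per kilobase of annotated exon, Hsp90ab1 was highest at 1600 ± 124 CPM per kb with STAT3- CM and 1502 ± 121 with STAT3+ CM (SD, n = 3 for all values with ±). Hspa8 followed at 671 ± 114 and 707 ± 42.5, and every library of Hsp90ab1 lay above every library of Hspa8. Hspd1 (454 ± 101 and 494 ± 25.9), Hspe1 (316 ± 33.8 and 382 ± 66.2) and Hsp90aa1 (300.04 ± 81.7 and 329 ± 14.5) came next, and from Hspa8 down to Hsp90aa1 the libraries of neighbouring genes overlapped over the 6 libraries. Hsph1 and Dnajb1 also overlapped. Hsph1 stood at 42.9 ± 11.7 and 40.3 ± 4.19, Dnajb1 at 28.0 ± 5.22 and 27.5 ± 2.72, and Hsf1 at 8.66 ± 0.867 and 8.17 ± 0.654. The stress-inducible HSP70 copies were lowest, Hspa1b at 3.18 ± 1.01 and 2.28 ± 1.14 and Hspa1a at 0.671 ± 0.126 and 0.490 ± 0.246. The 10 genes together took 1.11% ± 0.121 of all counts with STAT3- CM and 1.0977% ± 0.00884 with STAT3+ CM.

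Among the 6 libraries, total counts ran from 43346089 to 53630514 and TMM factors from 0.960 to 1.06. Lowest most often in these genes were STAT3- CM replicate 3 and STAT3+ CM replicate 1. STAT3- CM replicate 3 was the lowest of the 6 libraries in 6 of the 10 chaperones and in 24.8% of all genes tested. The same library was the highest in 0 of the 10 but in 22.9% of all genes, the largest such share of the 6. STAT3+ CM replicate 1 was lowest in 3 of the 10 (Hspa1a, Hspa1b and Hsf1) and in 17.4% of all genes. STAT3+ CM replicate 2 was lowest in 0 of the 10 but in 22.4% of all genes. Relative to each gene's mean over the 6 libraries, the median log2 CPM of the 10 was -0.32 in STAT3- CM replicate 3. In STAT3+ CM replicate 1 this median was -0.014. The markers listed for CD8 T cells, most of which other T cells also express, were all present (12 of 12). Their summed level was 4097 to 4191 CPM with STAT3- CM and 4075 to 4975 with STAT3+ CM. Of 14 dendritic cell markers 8 were in the table, summing to 474 to 786 CPM and 590 to 640 CPM with the maximum in STAT3- CM replicate 3, while Flt3, Clec9a and Xcr1 were not among the genes. Most of that sum was Ccr7, which T cells also express. Of the 8 dendritic markers tested, 4 had an unadjusted p under 0.05 (edgeR), all lower with STAT3+ CM (H2-Aa, H2-Eb1, Cd74 and Zbtb46). Of all genes 3.64% were under 0.05, 2.3% of them lower with STAT3+ CM as a share of all genes. Of these 8 markers 0 were called, and their median log2 fold change was -0.38. Cd74, the invariant chain of MHC class II, gave 79.1, 94.2 and 50.7 CPM with STAT3- CM and 36.1, 44.7 and 36.1 CPM with STAT3+ CM. Of 13 macrophage and monocyte markers 5 were present (93.4 to 149 and 109 to 204 CPM, with 93.4 in STAT3- CM replicate 3), and of 8 B cell markers 3 (281 to 329 and 310 to 349). All 7 NK cell markers were present (201 to 252 and 224 to 274), and 5 passed the filter on low counts. That list includes Klrk1 and Eomes, which CD8 T cells also express. Also present were 4 of 4 CD4 T cell markers (9.92 to 24.0 and 12.9 to 18.3) and 1 of 9 neutrophil markers (at most 1.10). Of 10 astrocyte markers 4 were present (19.4 to 28.3 and 16.7 to 24.0), and of 7 erythroid markers 0. The part of these differences in the chaperone values was not tested, and in bulk RNA fewer cells of a type and less RNA per cell cannot be told apart.

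Hsf1, which encodes the master regulator of the heat shock response, was a steady, moderately expressed gene. It read 65.8, 64.1 and 54.4 CPM with STAT3- CM and 52.6, 61.0 and 60.3 CPM with STAT3+ CM. The lowest library was with STAT3+ CM and the next lowest with STAT3- CM, so the groups overlapped. Its log2 fold change was -0.084 (standard error 0.13, 95% interval -0.37 to 0.20, adjusted p = 0.989, edgeR). Its biological coefficient of variation, the spread between replicates beyond counting noise, was 12.4%, lower than that of most genes (percentile 14.4). HSF1 protein is controlled mainly by its assembly and modification, which an RNA count does not show. Of the 8 other heat shock factors and regulators tested, 2 were positive with a median of -0.10, and 0 passed the threshold. Without STAT3- CM replicate 3, 4 were positive and the median was 0.033. Hdac6, a deacetylase that senses protein aggregates, had the smallest p of that list, from 16.9 ± 0.932 to 14.1 ± 1.72 CPM (log2 fold change -0.26, standard error 0.15). Its groups lay apart, as in 1 of the 8 genes of the list, beside 7.95% of all genes. Hdac6 was named for its small p, so its separation adds nothing to it. Hsf2, the second factor of the family, stood at 55.1 ± 18.99 and 48.6 ± 8.22 CPM, and Hsbp1, a small protein that binds HSF1, at 70.9 ± 1.71 and 77.0 ± 4.57. Sirt1, a deacetylase that acts on HSF1, had a log2 fold change of -0.19 (standard error 0.17).

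Hspa8, the constitutive HSP70 that folds new chains and uncoats clathrin vesicles, had 3072, 3256 and 2330 CPM with STAT3- CM and 3144, 3152 and 2832 CPM with STAT3+ CM. The values of 4 libraries lay close together, and STAT3- CM replicate 3 lay lowest. The group means differed by a log2 fold change of 0.076 (standard error 0.16, 95% interval -0.29 to 0.44, adjusted p = 0.989, edgeR), and without STAT3- CM replicate 3 the value was -0.057. In sequence, 74.8% of the 50-base windows of its transcript occur in transcripts of another gene, mostly processed copies. The 7 such copies in the table held reads equal to 0.224% to 0.278% of the Hspa8 count. The treatment of reads that match several genes is not given, so these low counts cannot show how many Hspa8 reads were affected.

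Hspa1a and Hspa1b, the HSP70 copies that rise most under heat, were the members with the lowest counts and the widest spread. Hspa1b gave 12.2, 7.20 and 7.38 CPM with STAT3- CM and 2.80, 7.42 and 8.96 CPM with STAT3+ CM. Hspa1a gave 2.41, 1.68 and 1.88 CPM with STAT3- CM and 0.661, 1.61 and 2.09 CPM with STAT3+ CM. In both genes STAT3+ CM replicate 1 was lowest and STAT3- CM replicate 1 highest, and the other 4 libraries lay between them. The highest library exceeded the lowest 4.36-fold in Hspa1b and 3.64-fold in Hspa1a, against 1.23-fold in Hsp90ab1. Their biological coefficients of variation, 33.7% and 33.9%, were above those of most genes (percentiles 92.3 and 92.6).

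Hspa1b had a log2 fold change of -0.47 (standard error 0.37, 95% interval -1.30 to 0.36, adjusted p = 0.989, edgeR). Hspa1a had -0.42 (standard error 0.37, 95% interval -1.24 to 0.39, adjusted p = 0.989, edgeR). The intervals reach from a fold of 0.405 to 1.29 for Hspa1b and 0.423 to 1.31 for Hspa1a. Without STAT3+ CM replicate 1 the values were -0.12 and -0.087, and without STAT3+ CM replicate 3 they were -0.81 and -0.83.

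**Figure D2:**
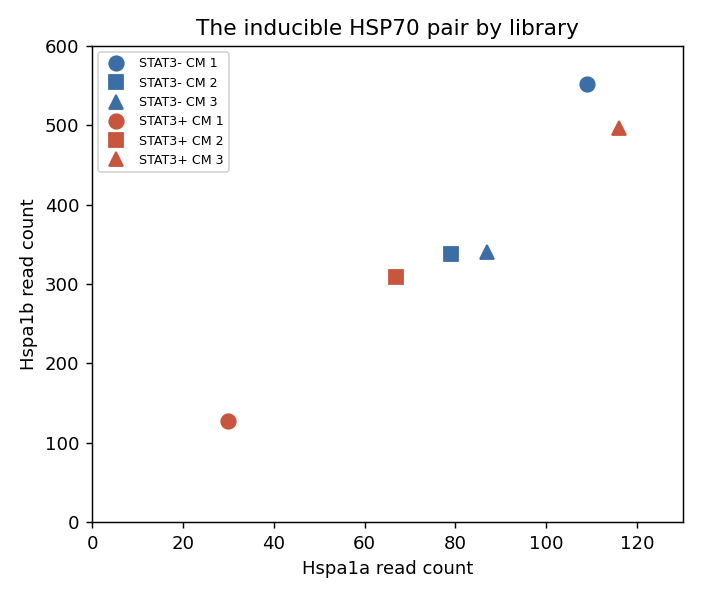
Read counts of Hspa1a (x axis) and Hspa1b (y axis) in the 6 libraries, with STAT3- CM in blue, STAT3+ CM in red and shapes for replicates. STAT3+ CM replicate 1 lies lowest with 30 and 127 reads, STAT3- CM replicate 1 has 109 and 552, and the libraries fall near a common line.

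The 2 copies moved in step from library to library. Hspa1a counts were 109, 79 and 87 with STAT3- CM and 30, 67 and 116 with STAT3+ CM, and Hspa1b counts 552, 338 and 341, then 127, 309 and 496. Hspa1a therefore made up 16.5% to 20.3% of the pair's reads, with 95% exact (Clopper-Pearson) intervals for single libraries that all included the span from 16.6% to 19.5%; these intervals cover counting error only. Their transcripts are hard to separate, since 58.8% of the 50-base windows of Hspa1a occur in Hspa1b, and how reads that match both were assigned is not given in the sources used here. A further row, Gm10501, shares 7.95% of the Hspa1a windows, searched on both strands, and its counts equalled 85.3% to 203% of those of Hspa1a. Its annotated exons do not overlap those of Hspa1a. Hspa1l, a gene absent from the counts, shares the same percentage. Annotated exons of Gm20481 do cover 564 bases of the Hspa1a exon on the opposite strand, and the strand setting of the counting is not known.

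As a single feature the pair had 14.6, 8.88 and 9.27 CPM with STAT3- CM and 3.46, 9.03 and 11.1 CPM with STAT3+ CM. Its mean was 10.9 ± 3.19 and 7.85 ± 3.93 CPM, with a log2 fold change of -0.47 (standard error 0.37, 95% interval -1.28 to 0.35, adjusted p = 0.989, edgeR). The groups overlapped.

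Hsph1, the HSP110 protein that exchanges nucleotide on HSP70 and helps dissolve aggregates, gave 358, 364 and 214 CPM with STAT3- CM and 259.7, 300.4 and 319 CPM with STAT3+ CM. The 2 highest and the lowest value were all with STAT3- CM. The log2 fold change was -0.090 (standard error 0.20, 95% interval -0.53 to 0.35, adjusted p = 0.989, edgeR). Without STAT3- CM replicate 3 it was -0.30, with an unadjusted p of 0.0458 and an adjusted p of 0.752 by edgeR. In that fit 1 of the 10 chaperones and 6.51% of all genes were under 0.05 unadjusted, so the count is near the background. Its transcript shares no 50-base window with another gene.

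Dnajb1, the J-domain partner that delivers unfolded chains to HSP70 and takes part in switching HSF1 off, gave 100.7, 97.9 and 70.5 CPM with STAT3- CM and 86.6, 97.4 and 80.1 CPM with STAT3+ CM. Again STAT3- CM replicate 3 was lowest and STAT3- CM replicate 1 highest. The log2 fold change was -0.028 (standard error 0.16, 95% interval -0.37 to 0.32, adjusted p = 0.998, edgeR), and its sign depended on which library was left out (-0.17 to 0.064).

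**Figure D3:**
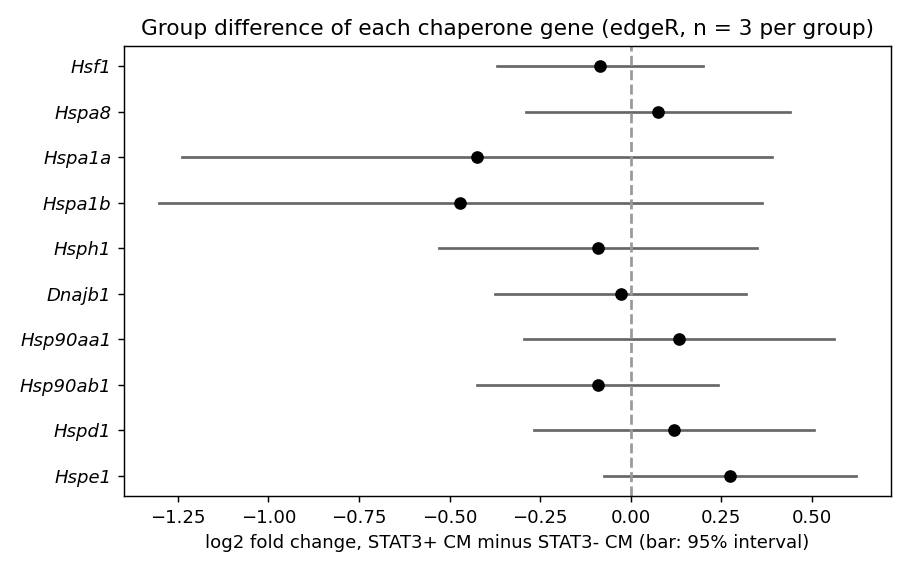
Log2 fold change, STAT3+ CM minus STAT3- CM, of each chaperone gene (points) with its 95% interval from the edgeR fit (bars), 3 libraries per group. Every interval includes 0; those of Hspa1a and Hspa1b are widest, and Hspe1 has the highest value at 0.27.

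The HSP90 genes mature kinases, steroid receptors and other clients, and Hsp90aa1 is the more stress-inducible copy while Hsp90ab1 is the constitutive one. Hsp90ab1 gave 4786, 5176 and 4431 CPM with STAT3- CM and 4908, 4403 and 4201 CPM with STAT3+ CM. The groups overlapped, with a log2 fold change of -0.091 (standard error 0.15, 95% interval -0.42 to 0.24, adjusted p = 0.989, edgeR). It had the smallest coefficient of variation of the 10, 12.1% (percentile 10.4). Hsp90aa1 gave 1207, 1486 and 845 CPM with STAT3- CM and 1266, 1359 and 1255 CPM with STAT3+ CM. The 3 libraries of STAT3+ CM lay close together, within the span of STAT3- CM, whose replicates 2 and 3 were the highest and the lowest of all. The log2 fold change was 0.13 (standard error 0.19, 95% interval -0.30 to 0.56, adjusted p = 0.989, edgeR), and it was -0.058 without STAT3- CM replicate 3. The ratio of Hsp90aa1 to Hsp90ab1 counts was 0.252, 0.287 and 0.191 with STAT3- CM and 0.258, 0.309 and 0.299 with STAT3+ CM, so the lowest ratio was again in STAT3- CM replicate 3. Of the Hsp90aa1 windows 58.5% occur in another gene, while Hsp90ab1 shares 4.49%. Copies of Hsp90aa1 in the table held reads equal to 0.201% to 0.366% of its count, with the same limit as for Hspa8.

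Hspe1 and Hspd1 encode the lid and the barrel of the mitochondrial chaperonin. From the nearer Hspd1 start they are transcribed away from each other across the element shown above. Hspe1 gave 485, 503 and 409 CPM with STAT3- CM and 531, 673 and 486 CPM with STAT3+ CM. STAT3+ CM replicates 2 and 1 were the highest of the 6, and STAT3+ CM replicate 3 lay below STAT3- CM replicate 2. Its log2 fold change, 0.27 (standard error 0.16, 95% interval -0.074 to 0.62, adjusted p = 0.989, edgeR), was the highest of the 10, at a 1.21-fold difference with an unadjusted p of 0.111. It stayed positive in each fit with a library left out (0.13 to 0.37), and its unadjusted p was 0.0445 without STAT3+ CM replicate 3, with an adjusted p of 0.525 by edgeR. In that fit, too, 1 of the 10 was under 0.05 unadjusted, beside 9.45% of all genes.

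Hspd1 gave 1223, 1456 and 922 CPM with STAT3- CM and 1238, 1374 and 1299 CPM with STAT3+ CM. As with Hsp90aa1, the span of STAT3- CM enclosed all STAT3+ CM libraries. The log2 fold change was 0.12 (standard error 0.17, 95% interval -0.27 to 0.51, adjusted p = 0.989, edgeR), and -0.039 without STAT3- CM replicate 3. The ratio of Hspd1 to Hspe1 counts was 2.52, 2.89 and 2.25 with STAT3- CM and 2.33, 2.04 and 2.67 with STAT3+ CM, with the lowest and next lowest in different groups. Annotated exons of the 2 genes overlap over 112 bases on opposite strands, 7.60% of the Hspe1 exon bases, and reads there cannot be assigned without strand. Of their 50-base windows, 44.78% in Hspd1 and 44.83% in Hspe1 occur in another gene.

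**Figure D4:**
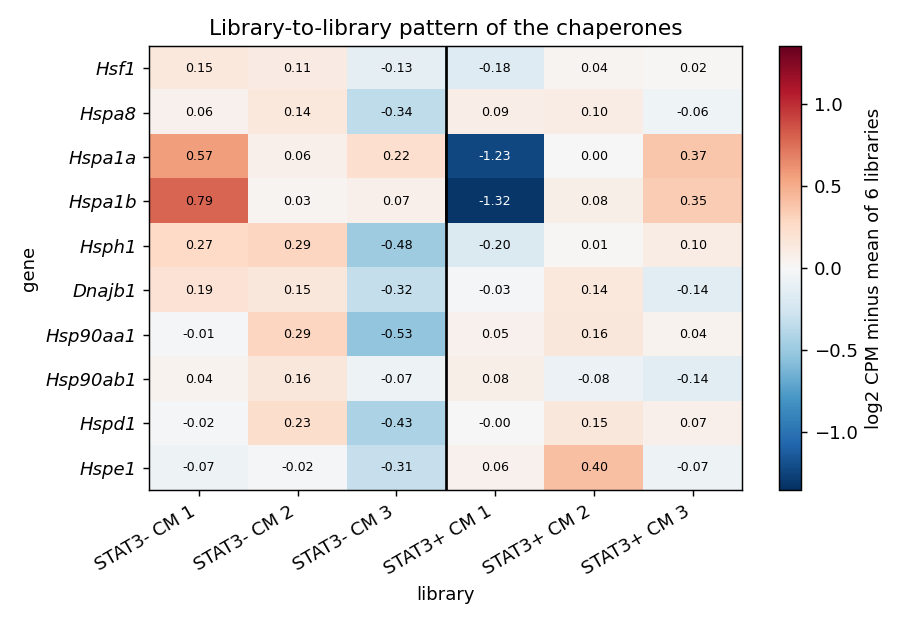
Log2 CPM of each chaperone gene (rows) in each library (columns), minus the gene's mean over the 6 libraries, with the value in each cell, red above and blue below the mean; the line divides the groups. STAT3- CM replicate 3 is below 0 in 8 of the 10 genes, and STAT3+ CM replicate 1 is at -1.23 and -1.32 in Hspa1a and Hspa1b.

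Most of the genes followed 1 of 2 patterns over the libraries. In STAT3- CM replicate 3, Hsp90aa1 stood at -0.53 on the centred log2 scale (log2 CPM minus the gene's mean over 6 libraries), Hsph1 at -0.48, Hspd1 at -0.43, Hspa8 at -0.34, Dnajb1 at -0.32 and Hspe1 at -0.31. In the same library Hspa1a stood at 0.22 and Hspa1b at 0.070, and Hsp90ab1 at -0.066 and Hsf1 at -0.13. Hsp90ab1 was lowest in STAT3+ CM replicate 3 (-0.14) and Hsf1 in STAT3+ CM replicate 1 (-0.18). The inducible pair was low instead in STAT3+ CM replicate 1, where the other 8 genes lay between -0.20 and 0.094. The pattern of STAT3- CM replicate 3 extended to most of the endoplasmic reticulum relatives. Hspa5 (BiP), the HSP70 of that compartment, gave 969, 927 and 550.4 CPM with STAT3- CM and 753, 1069 and 946 CPM with STAT3+ CM. Hsp90b1, its HSP90, gave 800.4, 879 and 582 CPM, then 797, 862 and 815 CPM. Sil1 and Dnajb11, cochaperones of Hspa5, had log2 fold changes of 0.16 (standard error 0.22) and 0.11 (standard error 0.16). With STAT3- CM Dnajb11 gave 155, 154 and 106 CPM. Sil1 went the other way, with 19.5, 20.2 and 29.7 CPM, so STAT3- CM replicate 3 was the highest of its group. Of 10 genes on that list 8 were lowest in STAT3- CM replicate 3, 0 were called, and 6 were positive, or 1 without that library.

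Genes whose library pattern came nearest to the mean of Hspa1a, Hspa1b, Hsph1 and Dnajb1 were Tmem154, Chpf2, Sh3bp2, Snx11, Rhbdf2, Marcksl1, Gucy1a1 and Cd44. Likeness was the root mean square difference of centred log2 CPM over 6 libraries, from 0.050 for Tmem154 to 0.099 for Cd44 among 8459 genes of at least 10 CPM, where the pattern itself had a root mean square of 0.35. That mean follows mainly the low-count pair: it stood at -0.69 in STAT3+ CM replicate 1, where Hspa1a and Hspa1b were at -1.23 and -1.32 but Hsph1 and Dnajb1 at -0.20 and -0.026. All 8 were lowest in STAT3+ CM replicate 1 and highest in STAT3- CM replicate 1. Cd44, an adhesion receptor of activated T cells, stood at 256 ± 29.3 CPM with STAT3- CM and 203 ± 60.1 with STAT3+ CM. None of the 8 was called, and nothing about shared function follows from the ranking.

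The rest of the folding network was also without a called gene. Among 15 further HSP70 genes and exchange factors tested, 13 were positive, 0 passed the threshold, and the median log2 fold change was 0.093. Bag2, an exchange factor that inhibits the ubiquitin ligase STUB1, had 22.7, 26.9 and 22.1 CPM with STAT3- CM and 28.3, 29.2 and 28.4 CPM with STAT3+ CM. Its groups lay apart (log2 fold change 0.26, standard error 0.13, adjusted p = 0.989, edgeR). Groups lay apart in 2 of these 15 genes, beside 7.95% of all genes. Bag2 was named for its small p, so its separation adds nothing to it. Hspa4l, a relative of Hsph1, had 75.7, 65.8 and 108 CPM, then 58.1, 49.2 and 83.1 CPM (log2 fold change -0.39, standard error 0.22). In Hspa4l STAT3- CM replicate 3 was the highest library, opposite to Hsph1. Hspa2, a mainly germ cell HSP70, had 0.38 (standard error 0.22), and Hspa14, a ribosome-bound HSP70, 0.18 (standard error 0.12).

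Of 21 J-domain cochaperones 13 were positive with a median of 0.057, and 0 passed the threshold. Without STAT3- CM replicate 3, 11 were positive with a median of 0.0029. Dnajc13, which acts on endosomes, had the smallest p, at 109 ± 2.96 and 90.6 ± 20.7 CPM (log2 fold change -0.27, standard error 0.16). Dnajc2, a partner of HSP70 on the ribosome, had 0.16 (standard error 0.14), and Dnajc21, which works in ribosome maturation, 0.16 (standard error 0.12). Dnajb12, which sits in the endoplasmic reticulum membrane, had -0.13 (standard error 0.12). Of 19 HSP90 cochaperones 15 were positive with a median of 0.082, and 0 passed. Fkbp4, an immunophilin of receptor complexes, stood at 381 ± 53.7 and 449 ± 54.1 CPM (log2 fold change 0.23, standard error 0.15), and the cyclophilin gene Ppid at 220.1 ± 35.1 and 259 ± 14.1 (0.23, standard error 0.14). Nudc had 0.21 (standard error 0.15) and Sugt1 0.15 (standard error 0.13). In 13 of the 19 STAT3- CM replicate 3 was lowest, and without it 13 were positive, with a median of 0.029.

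Chaperonins of the cytosol had mostly positive values. The list of TRiC, the ring that folds actin and tubulin, and of prefoldin, which feeds it, also held Pdcl and Pdcl3, subunits of neither. Of its 17 genes 16 were positive, 0 passed the threshold, and the median was 0.12. The exception was Cct6b, named after its value was seen, which was a gene of few reads at 0.571 and 0.419 CPM. Pfdn2 gave 101, 109 and 87.2 CPM with STAT3- CM and 111, 131 and 111 CPM with STAT3+ CM. Its groups lay apart (log2 fold change 0.25, standard error 0.13, adjusted p = 0.989, edgeR). Groups lay apart in 3 of the 17 genes (Pfdn2, Pdcl and Pdcl3), beside 7.95% of all genes. Pfdn2 was named for its small p, so its separation adds nothing to it. Pfdn6 had 0.23 (standard error 0.13), Pfdn4 0.22 (standard error 0.16) and Pfdn5 0.21 (standard error 0.15). STAT3- CM replicate 3 was lowest in 11 of the 17. Without it 16 were positive with a median of 0.079, and without it and STAT3+ CM replicate 1 together 13 were positive with a median of 0.063.

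Among 14 mitochondrial chaperones and proteases 9 were positive, the median was 0.0046, and 0 passed the threshold, beside the 0.27 and 0.12 of Hspe1 and Hspd1. Clpp, the proteolytic core of a matrix protease, stood at 77.5 ± 14.5 and 95.7 ± 23.7 CPM (log2 fold change 0.30, standard error 0.20). The exchange factors of mitochondrial HSP70, Grpel1 and Grpel2, had 0.23 (standard error 0.18) and 0.18 (standard error 0.12), and Hscb, a J-domain protein of iron-sulfur cluster assembly, had 0.19 (standard error 0.15). Small heat shock proteins were scarce: of 10 listed genes 2 were in the table, Hspb1 at 0.397 ± 0.239 and 0.734 ± 0.3998 CPM and Hspb6 at 6.08 ± 1.25 and 5.54 ± 1.84 CPM. Neither passed the threshold, with log2 fold changes of 0.92 (standard error 0.52) and -0.13 (standard error 0.27).

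Of 19 other genes known as HSF1 targets, some of which also stand in the lists above, 14 were positive with a median of 0.083, and 0 passed the threshold. Cacybp, which links HSP90 and ubiquitin ligases, stood at 328 ± 54.7 and 388 ± 34.7 CPM (log2 fold change 0.24, standard error 0.15). Without STAT3- CM replicate 3, 10 of the 19 were positive with a median of 0.0098. Their median level in that library was -0.12 relative to all 6 on the log2 scale, beside -0.32 for the 10 chaperones. With each library left out in turn, the list medians ran from 0.065 to 0.12 for the HSP70 genes and exchange factors, 0.0029 to 0.067 for J-domain cochaperones, 0.029 to 0.11 for HSP90 cochaperones, 0.0098 to 0.12 for HSF1 targets, 0.079 to 0.16 for TRiC and prefoldin, 0.0047 to 0.059 for mitochondrial genes, 0.17 to 0.77 for the small heat shock proteins, -0.22 to 0.033 for factors and regulators and -0.077 to 0.15 for the endoplasmic reticulum list.

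Immediate-early genes, which respond to stimulation within minutes and to cell handling, are given beside the inducible chaperones. Of 20 tested, 12 were positive with a median of 0.10, 0 passed the threshold, and 2 (10%) had an unadjusted p under 0.05, where 3.64% of all genes did. Their median was 0.0030 without STAT3+ CM replicate 2, with 10 of 20 positive, and 0.16 without STAT3- CM replicate 1. Jun, a subunit of AP-1, gave 49.9, 45.6 and 49.7 CPM with STAT3- CM and 69.3, 67.5 and 62.0 CPM with STAT3+ CM (log2 fold change 0.45, standard error 0.12, adjusted p = 0.702, edgeR). Klf4, a transcription factor that restrains proliferation, gave 4.88, 5.34 and 7.67 CPM, then 2.56, 3.31 and 3.59 CPM (log2 fold change -0.91, standard error 0.25, adjusted p = 0.777, edgeR). Zfp36, which speeds mRNA decay, had 0.27 (standard error 0.14) and Egr1, a transcription factor, 0.26 (standard error 0.18). The groups lay apart in Jun and Klf4, 2 of the 20 genes (10%), a share near the 7.95% of all genes. Both were named for their small p, so their separation adds nothing to it. The list's median level in STAT3+ CM replicate 1, where Hspa1a and Hspa1b were lowest, was -0.14 on the centred log2 scale, the lowest of the 6 libraries, and its part in those values was not tested.

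**Figure D5:**
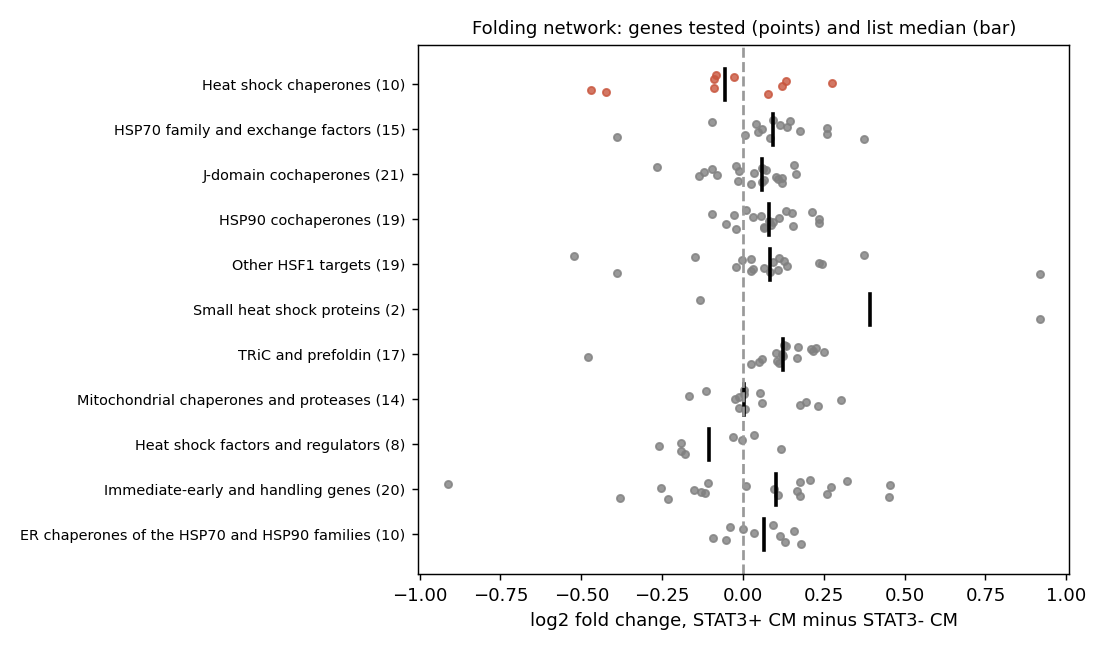
Log2 fold changes, STAT3+ CM minus STAT3- CM, of every gene tested in the 10 chaperones (red) and 10 further lists (grey). The further lists are of the folding network, except the list of immediate-early and handling genes. A bar marks each list's median, and the number of genes tested is in parentheses. Medians run from -0.10 for the heat shock factors and regulators to 0.12 for TRiC and prefoldin, apart from 0.39 for the 2 small heat shock proteins, and 0 genes were called in any list.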

How the data were processed

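The authors deposited a table of whole-number counts for the 6 libraries, whose columns were matched to groups by the labels. GRCm39 is the build in the submitters' processing notes, which list Cufflinks 2.2.1, SAMtools 0.1.19, TopHat2 2.0.10, FastQC and Bowtie 1.0.0 without their roles. For the counting program, annotation, strand setting and multiply mapped reads the status is: not given in the sources used here. The lowest gene total was 40. The chaperone genes and all lists were chosen with earlier results of these data known.

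filterByExpr kept 14319 of 14481 genes. TMM-scaled counts were tested in edgeR 4.0.16 (R 4.3.3) with its robust quasi-likelihood fit (legacy = FALSE). Two-sided p-values were adjusted over the genes tested (Benjamini-Hochberg, threshold 0.05). Standard errors were derived from the fold change and its F statistic, and the 95% interval uses the fit's total degrees of freedom. Centred log2 CPM used a prior count of 2. Total counts were 43346089 to 53630514, and the median biological coefficient of variation was 17.0%. Exon lengths and 50-base windows came from GENCODE M21 (GRCm38), matched by symbol for 10 of 10 genes, and promoters from RefSeq (GRCm38.p6). The text names all 10 genes, the 4 genes of smallest p in each list and the 8 nearest in pattern. Cct6b, Pdcl, Pdcl3, Gm10501, Gm20481 and the dendritic markers given with values were named after their values were seen. Alternatives were other scalings and filters, DESeq2 1.42.0, limma-voom (limma 3.58.1) with and without quality weights, the older quasi-likelihood method, a replicate block and each library left out. Removal of both STAT3- CM replicate 3 and STAT3+ CM replicate 1, most often lowest in the chaperones, was added after the data were seen. The workflow was tested on simulated data. After each group's mean was removed, libraries of equal replicate number had correlations of -0.26, 0.28 and 0.18 over genes. Unequal numbers were not compared, so these values cannot decide whether the replicate numbers pair the libraries. No pair of libraries agreed within sampling noise.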

Additional observations from a re-analysis of the deposited data

How the results depend on the processing

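In 17 alternative fits 0 of the 10 chaperones and 0 genes of the 10 lists were called. The count over all genes, 0 in the edgeR fit with all libraries, was 48 by DESeq2 and 16 by limma-voom with sample quality weights. It was 0 to 18 with a library left out (18 without STAT3- CM replicate 3, 1 without STAT3- CM replicate 1). With STAT3- CM replicate 3 and STAT3+ CM replicate 1 both removed it was 10. The fit with the replicate number as a block called 0 genes over all and 0 chaperones, so the block changed no call. It gave -0.54 for the sum of Hspa1a and Hspa1b and 0.27 for Hspe1. In that edgeR fit 4.95% of all genes were under 0.05 unadjusted, beside 3.64% without the block. Of 908 fitted values of single named genes, 882 kept their sign and their side of the threshold and 26 changed sign, none of them called. With a library left out, the log2 fold change ran from -0.057 to 0.17 for Hspa8, -0.30 to 0.036 for Hsph1, -0.039 to 0.28 for Hspd1, -0.058 to 0.33 for Hsp90aa1, -0.17 to 0.064 for Dnajb1, -0.40 to 0.067 for Hspb6, -0.36 to 0.13 for Hsf2, -0.039 to 0.32 for Hspa5, -0.027 to 0.25 for Hsp90b1, -0.080 to 0.38 for Sil1, -0.046 to 0.20 for Dnajb11, -0.31 to 0.042 for Sh3bp2, -0.31 to 0.084 for Snx11 and -0.28 to 0.13 for Gucy1a1. With quality weights Hspa8 had -0.012 and Hsf2 0.032. With STAT3- CM replicate 3 and STAT3+ CM replicate 1 both removed, Hspa8 had -0.080, Hspd1 -0.0025, Hsp90aa1 -0.043, Hsp90b1 -0.0019 and Gucy1a1 0.027. The cause of these changes was not tested. Hspa1a, Hspa1b, Hsp90ab1 and Hsf1 stayed negative and Hspe1 positive in every fit run. For the genes of lowest count, Hspa1a (30 to 116 reads) and Hspb1, depth limits the precision as well as the spread between libraries.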
